A study of Mus musculus with 9 samples.

Results

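The genes of the eukaryotic translation initiation factors (eIFs) and of the proteins that bind them were followed in mouse splenic B cells before and after activation. They were taken as every gene of the deposited table whose symbol begins with Eif and a number from 1 to 6, without the eIF2 kinase genes (Eif2ak) and without the Y-linked *Eif2s3y*, which left 51 of 17596 genes. Of these, 49 had a mean of at least 1 FPKM (fragments per kilobase of transcript per 1e+06 mapped fragments) over all libraries and were tested. The other 2 were *Eif4e1b*, an oocyte-type cap binding gene with 0.07 to 0.23 FPKM, and *Eif4a3l1*, which was listed at 0.04 FPKM in 1 library and at 0 in the others. RNA was sequenced from primary B cells of Mb1Cre control mice and of Mct1f/fMb1Cre mice aged 6 to 8 weeks. In both genotypes the *Mb1* locus drives Cre in the B cell lineage, so the controls carry Cre as well, and in Mct1f/fMb1Cre mice Cre deletes a floxed segment of *Mct1*, which the table lists as *Slc16a1*. Naive cells (day 0) gave 2 libraries of each genotype. Cells cultured for 3 days with LPS at 10 μg/ml and IL-4 at 50 ng/ml, a mixture that makes B cells divide and switch antibody class, gave 2 Mb1Cre and 3 Mct1f/fMb1Cre libraries. The labels do not say which mice the libraries came from, and all p-values below measure the spread between these libraries, which may be technical.

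Translation of most mRNAs starts when a small ribosomal subunit, prepared by eIF1, eIF1A, eIF3 and eIF5, takes up the initiator tRNA carried by eIF2 and is brought to the capped 5′ end of the mRNA by eIF4F. The eIF4F complex holds the cap binding protein eIF4E, the scaffold eIF4G and the RNA helicase eIF4A, and the 4E-binding proteins (4E-BPs) block it by occupying eIF4E until mTOR phosphorylates them. The exchange factor eIF2B recharges eIF2 with GTP after each round, and eIF5B joins the large subunit. Activated lymphocytes enlarge and raise their protein synthesis before they divide.

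The libraries were first compared with their labels. *Slc16a1*, the gene that was deleted, was measured at 4.33 and 3.80 FPKM in naive Mb1Cre and 3.71 and 4.06 FPKM in naive Mct1f/fMb1Cre B cells, and 22.6 and 22.9 FPKM in activated Mb1Cre and 10.8, 9.81 and 9.50 FPKM in activated Mct1f/fMb1Cre B cells. The Mct1f/fMb1Cre libraries thus lay below the control libraries after activation, at 44.1% of the control mean, and overlapped with them on day 0. All 8 B cell markers were abundant in every library, and their summed level was between 14222 and 15756 FPKM on day 0 and between 8769.6 and 9365 FPKM on day 3, with *Cd74* as the most abundant. The naive libraries also carried transcripts of other cells. The 8 myeloid markers summed to 1029 and 1221 FPKM in naive Mb1Cre and 1862 and 1116 FPKM in naive Mct1f/fMb1Cre libraries, led by *Lyz2*, and to 16.8 and 15.1 FPKM in activated Mb1Cre and 24.5, 22.2 and 25.4 FPKM in activated Mct1f/fMb1Cre libraries, and 7 of the 8 were at least 10 times higher on day 0. The 6 erythroid markers, led by *Hba-a1*, summed to between 125 and 231 FPKM on day 0 and between 4.34 and 7.95 FPKM on day 3, with *Hbb-bs* at 0 in all day 3 libraries, and the 5 T cell markers, led by *Cd4*, to between 26.7 and 30.1 FPKM on day 0 and between 0.770 and 1.37 FPKM on day 3. The natural killer, platelet and plasma cell markers, led by *Gzma*, *Pf4* and *Xbp1*, summed to between 67.0 and 82.8 FPKM, between 3.70 and 9.33 FPKM and between 134 and 234 FPKM on day 0, and to between 85.3 and 98.4 FPKM, between 2.11 and 3.85 FPKM and between 321 and 393 FPKM on day 3. The sums do not stand for all their members. Of the 4 natural killer cell markers only *Gzma* rose in Mb1Cre B cells (log2 change 1.21), while those of *Klrb1c*, *Ncr1* and *Nkg7* were -2.32, -2.81 and -1.83 and were called lower. Of the 4 plasma cell markers *Xbp1* (2.00), *Prdm1* (1.65) and *Jchain* (0.79) rose and *Sdc1* (-1.27) fell in Mb1Cre B cells, and *Jchain* fell in Mct1f/fMb1Cre B cells (-0.65). The part of these cells in the changes given below was not tested. Fewer cells of a type and less RNA per cell cannot be told apart in such bulk samples.

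The sex of the mice differed between libraries. The Y-linked *Eif2s3y* had 0.45 and 0.11 FPKM in naive Mb1Cre and 59.6 and 0.58 FPKM in naive Mct1f/fMb1Cre libraries, and 59.2 and 62.3 FPKM in activated Mb1Cre and 47.7, 49.9 and 44.6 FPKM in activated Mct1f/fMb1Cre libraries. *Eif2s3y* was therefore abundant in replicate 1 of naive Mct1f/fMb1Cre and in all 5 activated libraries, and near 0 in the other 3 naive libraries. *Ddx3y* and *Kdm5d* were likewise highest in those 6 libraries, as was *Uty*, which had 2.51 and 2.09 FPKM in naive Mb1Cre and 2.66 FPKM in replicate 2 of naive Mct1f/fMb1Cre and so was lower but not near 0 in the 3 naive libraries. In Mb1Cre mice, day and sex cannot be told apart. Replicate 1 of naive Mct1f/fMb1Cre also had the highest summed myeloid and erythroid markers. The median change on activation in Mct1f/fMb1Cre B cells is given with and without it, while most counts that include this library are given only with it.

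Activation raised most initiation factor genes. In Mb1Cre B cells, 34 of the 49 tested genes rose and 2 fell at an adjusted p under 0.05 (limma) and a log2 change of FPKM + 1 above 0.5 in size, and 13 did not pass. Of all 10823 genes tested, 24.8% rose and 33% fell by the same rule. The median log2 change of the 49 genes was 0.71, and that of all genes tested was -0.12. Together the 51 genes summed to 4153 and 4121 FPKM in naive Mb1Cre and 7049 and 6990.4 FPKM in activated Mb1Cre libraries, and their share of a library's summed FPKM was 0.844% to 0.871% in naive and 1.25% to 1.28% in activated Mb1Cre libraries. The largest rises were those of *Eif4ebp1* (2.03), *Eif2s2* (1.89), *Eif1a* (1.50), *Eif3i* (1.44), *Eif2s1* (1.39), *Eif2b3* (1.30), *Eif3c* (1.27), *Eif4a1* (1.26) and *Eif5a* (1.24) on the log2 scale, and the genes that fell were *Eif4a2* (-0.82) and *Eif4g3* (-0.55). At an adjusted p under 0.05 without the log2 limit, 44 genes were higher and 5 lower, where 37% and 47.5% of all genes were. The day 0 and day 3 libraries of Mb1Cre mice did not overlap for any of the 49 genes, which was the case for 91.9% of all genes tested.

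The fold changes depend on how libraries are set against each other, since the deposited FPKM of a library sum to more on day 3 than on day 0. Scaled to a common total, 26 genes were called higher and 3 lower in Mb1Cre B cells, beside 19.2% and 40.8% of all genes; with median-of-ratios scaling the numbers were 43 and 1, beside 31.6% and 25.5%. These scalings moved the median of all genes by -0.18 and 0.19 on the log2 scale, and the distance from that median to the median of the 49 genes was 0.84 as deposited, 0.86 under both scalings and 0.63 after quantile normalization. Each of the 49 genes kept the direction of its change in Mb1Cre B cells under these 3 scalings. As deposited and under each of them, 44 of the 49 lay above the median of all genes. In Mct1f/fMb1Cre B cells, described further below, 28 were called higher and 3 lower with a common total, and 42 and 1 with median-of-ratios scaling; of all genes, 18.6% and 39.9%, and 30.8% and 25.3%, were.

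**Figure D1:**
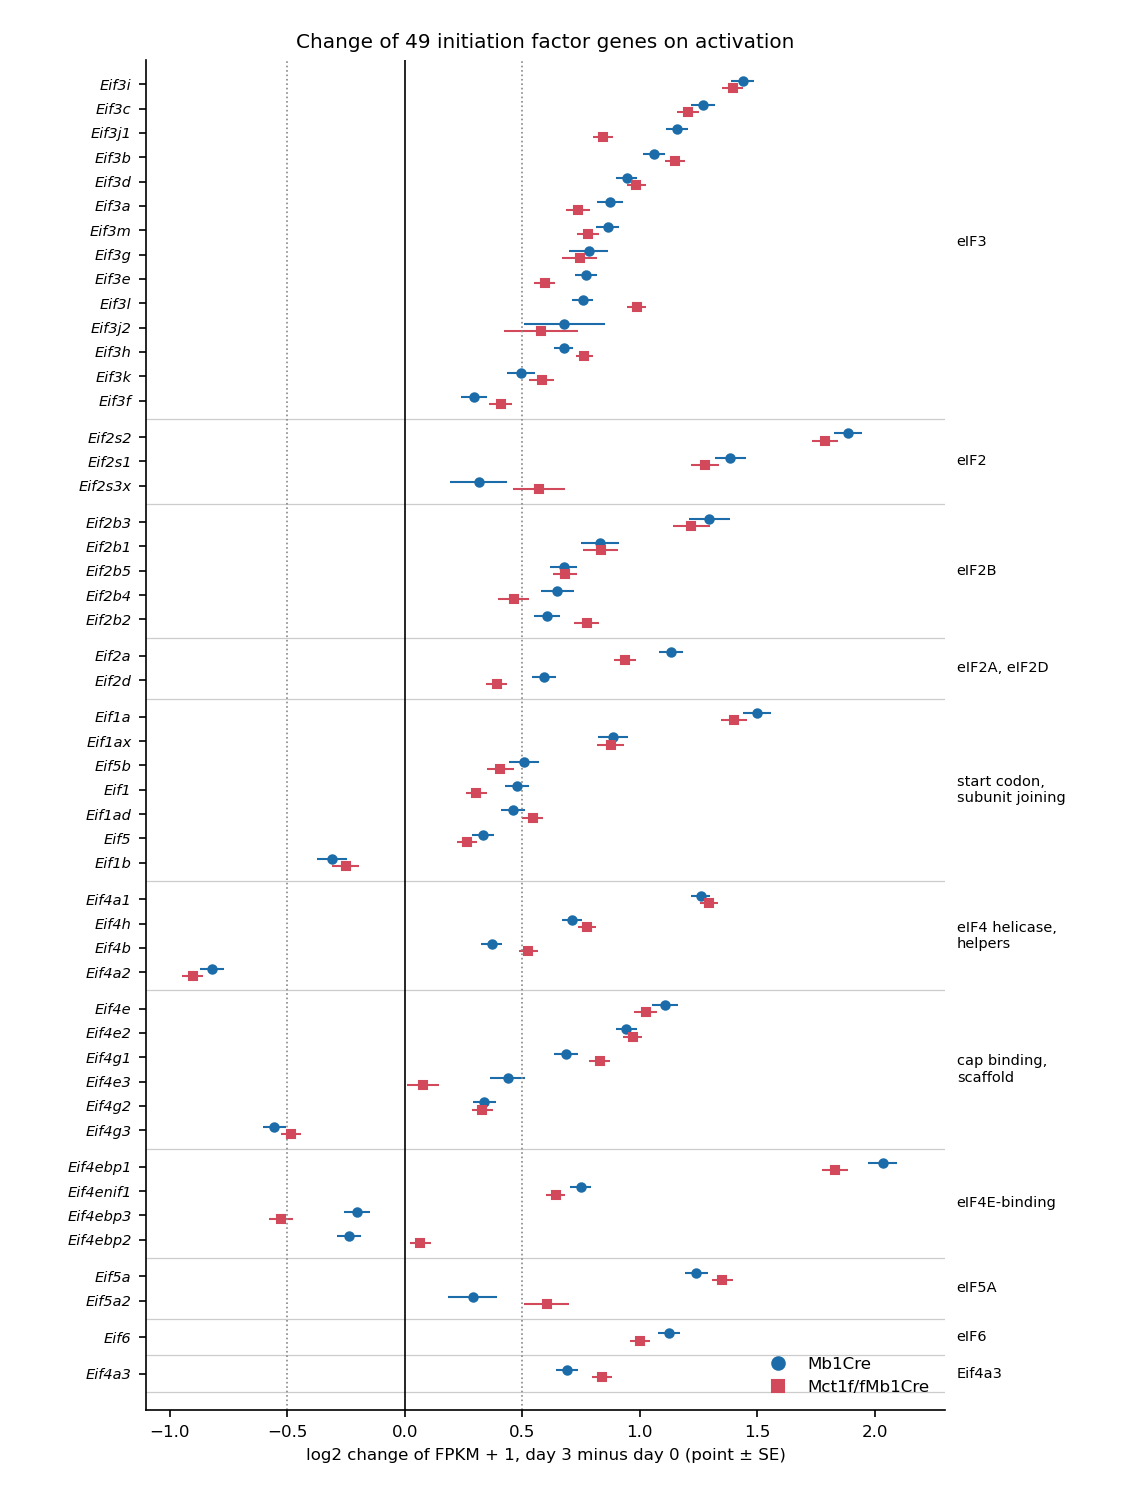
Log2 change of FPKM + 1 from day 0 to day 3 for the 49 tested initiation factor genes, grouped by role, with its standard error; circles are Mb1Cre (2 libraries on each day) and squares Mct1f/fMb1Cre (2 and 3 libraries), and dotted lines mark a change of 0.5 in size. Most points of both genotypes lie to the right of 0.5, with Eif4ebp1 farthest right (2.03 in Mb1Cre) and Eif4a2 farthest left (-0.82 in Mb1Cre).

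The scaffold complex eIF3, which holds the small subunit and links it to eIF4G, had most of its subunit genes raised. Of its 14 genes, 12 rose in Mb1Cre B cells, none fell, and the median log2 change was 0.82. *Eif3i*, a subunit with a propeller fold, changed most and was measured at 107 and 112 FPKM in naive Mb1Cre and 106 and 112 FPKM in naive Mct1f/fMb1Cre B cells, and 305 and 293 FPKM in activated Mb1Cre and 281, 298 and 286 FPKM in activated Mct1f/fMb1Cre B cells. All day 3 values of *Eif3i* were above those of day 0, without overlap, and the log2 change in Mb1Cre cells was 1.44 (SE 0.049, adjusted p = 3.05e-10). *Eif3f*, the most abundant of these genes, was measured at 337 and 355 FPKM in naive Mb1Cre and 343 and 342 FPKM in naive Mct1f/fMb1Cre B cells, and 441 and 409.5 FPKM in activated Mb1Cre and 436, 457 and 473 FPKM in activated Mct1f/fMb1Cre B cells. Its day 3 libraries were also all above the day 0 libraries, but its log2 change of 0.30 (SE 0.054, adjusted p = 0.000332) lay within the limit, as did that of *Eif3k* at 0.50 (SE 0.058, adjusted p = 9.59e-06). *Eif3a*, *Eif3b* and *Eif3c* rose by 0.87, 1.06 and 1.27, and *Eif3d* (0.94), *Eif3e* (0.77), *Eif3g* (0.78), *Eif3h* (0.68), *Eif3l* (0.76) and *Eif3m* (0.86) rose as well. The call of *Eif3h* in Mb1Cre B cells was lost with a common total and after quantile normalization.

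The level of the subunit genes was uneven. On day 3 it spanned a smaller range. FPKM are per transcript length, so levels can be compared between genes. Without *Eif3j2*, the mean level in naive Mb1Cre B cells ran from 24.9 FPKM (*Eif3j1*) to 346 FPKM (*Eif3f*), a ratio of 13.9. In activated Mb1Cre B cells it ran from 56.9 to 425 FPKM between the same 2 genes, a ratio of 7.48. The ratio in Mct1f/fMb1Cre B cells was 11.7 on day 0 and 8.56 on day 3. The narrowing was not tested. *Eif3j1* codes for the loosely bound subunit that assists ribosome recycling, and it was measured at 25.3 and 24.5 FPKM in naive Mb1Cre and 28.9 and 29.5 FPKM in naive Mct1f/fMb1Cre B cells, and 55.9 and 57.8 FPKM in activated Mb1Cre and 55.1, 52.1 and 52.4 FPKM in activated Mct1f/fMb1Cre B cells, with a rise of 1.16 (SE 0.046, adjusted p = 1.01e-09) in Mb1Cre cells. Its copy *Eif3j2* was near the lower limit of the test, at 1.05 and 1.15 FPKM in naive Mb1Cre and 1.40 and 0.75 FPKM in naive Mct1f/fMb1Cre B cells, and 2.88 and 1.91 FPKM in activated Mb1Cre and 2.47, 1.96 and 1.81 FPKM in activated Mct1f/fMb1Cre B cells. Reads of *Eif3j1* and *Eif3j2* may have been split between these near-identical genes, and the call of *Eif3j2* in Mb1Cre B cells (log2 change 0.68) was lost without replicate 1 of day 3 (0.47).

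**Figure D2:**
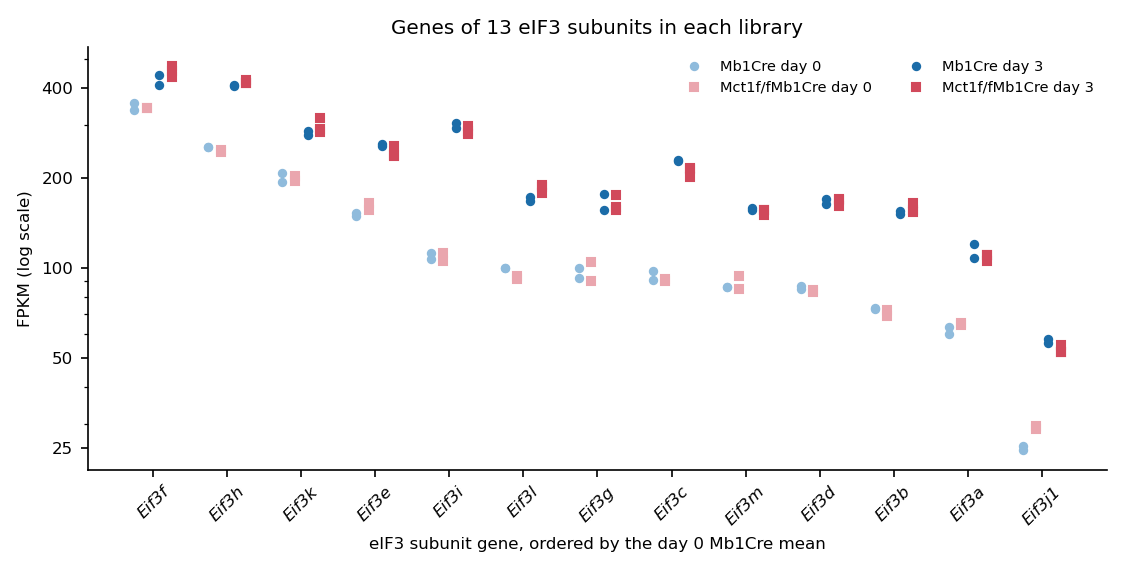
FPKM (log scale) of 13 eIF3 subunit genes in each of the 9 libraries; pale points are day 0, dark points day 3, circles Mb1Cre and squares Mct1f/fMb1Cre. Day 3 points lie above day 0 points for every gene, with the smallest gap at Eif3f and the widest at Eif3i.

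The factors that bring and recharge the initiator tRNA also rose in part. Of the 3 eIF2 genes, 2 rose in Mb1Cre B cells. *Eif2s2*, the beta subunit gene and the most abundant of them by its mean over all libraries, was measured at 37.7 and 38.6 FPKM in naive Mb1Cre and 36.3 and 39.0 FPKM in naive Mct1f/fMb1Cre B cells, and 140.4 and 148 FPKM in activated Mb1Cre and 134, 139.7 and 124 FPKM in activated Mct1f/fMb1Cre B cells. The groups of the 2 days were far apart, with a log2 change of 1.89 (SE 0.059, adjusted p = 1.52e-10), second in size to *Eif4ebp1* among the 49 genes. *Eif2s1*, whose product is the alpha subunit that stress kinases phosphorylate, rose by 1.39 (SE 0.067, adjusted p = 4.51e-09). The X-linked gamma subunit gene *Eif2s3x* was measured at 76.1 and 71.1 FPKM in naive Mb1Cre and 50.5 and 72.2 FPKM in naive Mct1f/fMb1Cre B cells, and 88.6 and 95.1 FPKM in activated Mb1Cre and 90.4, 88.8 and 91.4 FPKM in activated Mct1f/fMb1Cre B cells. Its lowest value was that of the naive Mct1f/fMb1Cre library with abundant *Eif2s3y*. In Mb1Cre cells its log2 change of 0.32 (SE 0.12, adjusted p = 0.0304) lay within the limit. *Eif2s3x* and *Eif2s3y* code for near-identical proteins and may share reads. Their summed level was 76.5 and 71.2 FPKM in naive Mb1Cre, 110.1 and 72.8 FPKM in naive Mct1f/fMb1Cre, 148 and 157 FPKM in activated Mb1Cre and 138, 139 and 136 FPKM in activated Mct1f/fMb1Cre libraries. *Eif2s3y* made up 54.2% of that sum in replicate 1 of naive Mct1f/fMb1Cre and between 32.8% and 40.1% in the activated libraries. The part of sex in the change of this sum was not tested.

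**Figure D3:**
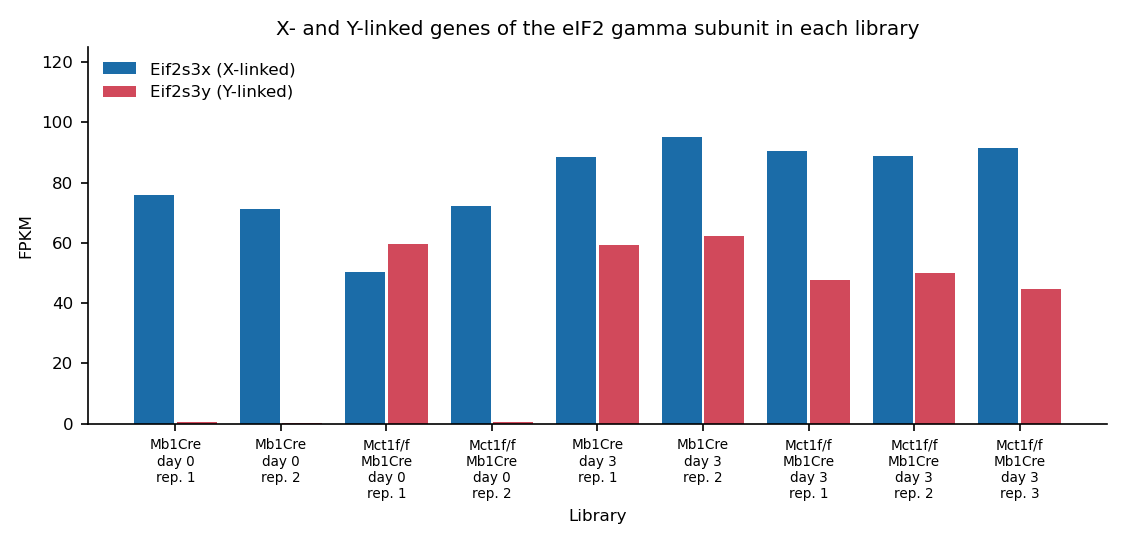
FPKM of the X-linked Eif2s3x and the Y-linked Eif2s3y in each library. Eif2s3y is near 0 in 3 of the 4 naive libraries and between 44.6 and 62.3 FPKM in replicate 1 of naive Mct1f/fMb1Cre and all activated libraries.

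All 5 genes of eIF2B, the exchange factor for eIF2, rose in Mb1Cre B cells, with a median log2 change of 0.68. Scaled to a common total, *Eif2b2*, *Eif2b4* and *Eif2b5* no longer passed. *Eif2b3*, a subunit of its catalytic part, had the lowest level and the largest change of the 5, and was measured at 6.94 and 5.82 FPKM in naive Mb1Cre and 6.79 and 6.59 FPKM in naive Mct1f/fMb1Cre B cells, and 18.0 and 16.2 FPKM in activated Mb1Cre and 16.1, 18.2 and 16.4 FPKM in activated Mct1f/fMb1Cre B cells. Its day 3 values were above its day 0 values in both genotypes, and the log2 change was 1.30 (SE 0.086, adjusted p = 6.76e-08). *Eif2b2*, the most abundant, was measured at 28.2 and 30.2 FPKM in naive Mb1Cre and 27.8 and 29.8 FPKM in naive Mct1f/fMb1Cre B cells, and 43.6 and 46.3 FPKM in activated Mb1Cre and 48.9, 49.0 and 52.0 FPKM in activated Mct1f/fMb1Cre B cells, and rose by 0.61 (SE 0.057, adjusted p = 1.45e-06). The others, *Eif2b1* (0.83), *Eif2b4* (0.65) and *Eif2b5* (0.68), rose by amounts between these. Both genes of alternative carriers of the initiator tRNA rose too. *Eif2a*, which codes for a monomer unrelated to eIF2 in structure, was measured at 26.6 and 25.3 FPKM in naive Mb1Cre and 27.0 and 27.0 FPKM in naive Mct1f/fMb1Cre B cells, and 55.7 and 60.7 FPKM in activated Mb1Cre and 52.0, 53.7 and 52.3 FPKM in activated Mct1f/fMb1Cre B cells. No day 3 library of *Eif2a* overlapped with those of day 0, and the log2 change was 1.13 (SE 0.051, adjusted p = 2.61e-09). *Eif2d*, which also acts in the recycling of terminated ribosomes, rose by 0.59 (SE 0.051, adjusted p = 6.88e-07). This call of *Eif2d* was lost with a common total.

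The genes of start codon selection and subunit joining were mixed. Of 7, 3 rose in Mb1Cre B cells and 4 did not pass. These numbers depend on the scaling. With a common total *Eif5b* lost its call and *Eif1b* was called lower. With median-of-ratios scaling *Eif1*, *Eif5* and *Eif1ad* were called higher as well. *Eif1*, the gatekeeper of start codon choice and the most abundant of them, was measured at 283 and 280.2 FPKM in naive Mb1Cre and 296 and 306 FPKM in naive Mct1f/fMb1Cre B cells, and 407 and 379 FPKM in activated Mb1Cre and 383, 358 and 376 FPKM in activated Mct1f/fMb1Cre B cells. The day 3 libraries of *Eif1* lay above the day 0 libraries, with a log2 change of 0.48 (SE 0.05, adjusted p = 3.78e-06), just within the limit. Its paralog *Eif1b*, measured at 45.3 and 49.0 FPKM in naive Mb1Cre and 49.7 and 47.5 FPKM in naive Mct1f/fMb1Cre B cells, and 39.5 and 36.3 FPKM in activated Mb1Cre and 38.5, 41.2 and 42.3 FPKM in activated Mct1f/fMb1Cre B cells, was lower on day 3 in every library, with a log2 change of -0.31 (SE 0.062, adjusted p = 0.000708) that lay within the limit. The copies of eIF1A, which sits in the decoding site beside eIF1, both rose. *Eif1a*, an autosomal copy in the mouse, was measured at 18.5 and 16.6 FPKM in naive Mb1Cre and 17.9 and 18.9 FPKM in naive Mct1f/fMb1Cre B cells, and 49.5 and 53.3 FPKM in activated Mb1Cre and 49.9, 49.4 and 51.8 FPKM in activated Mct1f/fMb1Cre B cells. The X-linked *Eif1ax* was measured at 10.9 and 10.4 FPKM in naive Mb1Cre and 10.8 and 10.8 FPKM in naive Mct1f/fMb1Cre B cells, and 21.5 and 19.4 FPKM in activated Mb1Cre and 20.7, 21.6 and 19.6 FPKM in activated Mct1f/fMb1Cre B cells. Their log2 changes were 1.50 (SE 0.06, adjusted p = 1.05e-09) and 0.89 (SE 0.064, adjusted p = 1.52e-07), and reads may have been shared between them. *Eif5b*, the GTPase that joins the subunits, rose by 0.51 (SE 0.064, adjusted p = 1.71e-05) and lost this call without replicate 1 of day 0 (0.43) or replicate 2 of day 3 (0.48). *Eif5*, which makes eIF2 hydrolyse its GTP, and *Eif1ad*, an eIF1A domain gene, had log2 changes of 0.33 and 0.46, within the limit.

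The helicase genes of eIF4F moved in opposite directions. *Eif4a1* and *Eif4a2* code for close paralogs that unwind the 5′ end of mRNAs. *Eif4a1* was measured at 225 and 216 FPKM in naive Mb1Cre and 221 and 226 FPKM in naive Mct1f/fMb1Cre B cells, and 527 and 532 FPKM in activated Mb1Cre and 540.3, 557 and 553 FPKM in activated Mct1f/fMb1Cre B cells. *Eif4a2* was measured at 247 and 228 FPKM in naive Mb1Cre and 235 and 246 FPKM in naive Mct1f/fMb1Cre B cells, and 134 and 133 FPKM in activated Mb1Cre and 132, 128 and 124 FPKM in activated Mct1f/fMb1Cre B cells. On day 0, *Eif4a2* was above *Eif4a1* in every library, and on day 3 *Eif4a1* was far above *Eif4a2* in every library, with no overlap between the days for either gene. In Mb1Cre B cells *Eif4a1* rose by 1.26 (SE 0.042, adjusted p = 2.32e-10), and the log2 change of *Eif4a2* was -0.82 (SE 0.05, adjusted p = 3.57e-08). The helper proteins eIF4B and eIF4H stimulate the helicase. *Eif4h* rose by 0.71 (SE 0.042, adjusted p = 2.7e-08), and the log2 change of *Eif4b* was 0.37 (SE 0.045, adjusted p = 1.23e-05), within the limit. The 250 bases upstream of the 2 helicase genes are shown because the genes moved apart; capitals mark the E-box CACGTG, the letters that factors of the *Myc* and Max family bind. They are RefSeq sequences of GRCm38.p6, for *Eif4a1* on the minus strand of chr11:69672424-69672673 and for *Eif4a2* on the plus strand of chr16:23107218-23107467, each ending at the base before the annotated start.
Eif4a1: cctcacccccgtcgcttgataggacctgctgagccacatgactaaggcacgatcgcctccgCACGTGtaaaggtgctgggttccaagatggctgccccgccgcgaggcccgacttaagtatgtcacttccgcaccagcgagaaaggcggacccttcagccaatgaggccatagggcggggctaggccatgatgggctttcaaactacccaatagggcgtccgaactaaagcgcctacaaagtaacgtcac
Eif4a2: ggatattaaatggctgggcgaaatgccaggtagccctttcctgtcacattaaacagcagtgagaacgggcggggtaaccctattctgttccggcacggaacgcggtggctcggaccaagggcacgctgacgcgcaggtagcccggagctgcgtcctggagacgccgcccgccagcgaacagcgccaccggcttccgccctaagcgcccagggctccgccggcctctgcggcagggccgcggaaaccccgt
The window of *Eif4a1* held the motif once, 189 bases before the start, and that of *Eif4a2* did not hold these letters. The part of the motif in their changes was not tested. *Eif1b*, which was lower on day 3, held it as well, and the shares over all windows are given further below.

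Among the cap binding and scaffold genes, 3 of 6 tested rose, 1 fell and 2 did not pass. *Eif4e*, the cap binding protein gene, was measured at 37.4 and 34.4 FPKM in naive Mb1Cre and 36.7 and 38.4 FPKM in naive Mct1f/fMb1Cre B cells, and 77.9 and 79.2 FPKM in activated Mb1Cre and 81.0, 75.7 and 75.9 FPKM in activated Mct1f/fMb1Cre B cells, and rose by 1.11 (SE 0.054, adjusted p = 4.81e-09), without overlap between the days. *Eif4e2*, whose product binds the cap without recruiting eIF4G and represses translation, was measured at 40.6 and 41.6 FPKM in naive Mb1Cre and 41.4 and 39.6 FPKM in naive Mct1f/fMb1Cre B cells, and 81.6 and 78.5 FPKM in activated Mb1Cre and 81.9, 80.4 and 78.7 FPKM in activated Mct1f/fMb1Cre B cells. In Mb1Cre cells *Eif4e2* rose by 0.94 (SE 0.044, adjusted p = 3.63e-09). The tissue-restricted *Eif4e3* was measured at 8.47 and 8.12 FPKM in naive Mb1Cre and 10.3 and 8.98 FPKM in naive Mct1f/fMb1Cre B cells, and 11.6 and 11.6 FPKM in activated Mb1Cre and 10.4, 10.6 and 9.58 FPKM in activated Mct1f/fMb1Cre B cells. In Mb1Cre cells its log2 change was 0.44 (SE 0.073, adjusted p = 0.000171), within the limit, and the Mct1f/fMb1Cre libraries of the 2 days overlapped. The scaffold genes differed more. *Eif4g1*, the main scaffold, was measured at 80.8 and 74.4 FPKM in naive Mb1Cre and 74.3 and 75.6 FPKM in naive Mct1f/fMb1Cre B cells, and 124 and 127 FPKM in activated Mb1Cre and 135, 129 and 137 FPKM in activated Mct1f/fMb1Cre B cells, and rose by 0.69 (SE 0.05, adjusted p = 1.52e-07). *Eif4g2*, the most abundant of the group, codes for a scaffold without the eIF4E site that serves cap-independent starts, and was measured at 124 and 115 FPKM in naive Mb1Cre and 121 and 119 FPKM in naive Mct1f/fMb1Cre B cells, and 148 and 154 FPKM in activated Mb1Cre and 155, 145 and 153 FPKM in activated Mct1f/fMb1Cre B cells. Its log2 change of 0.34 (SE 0.049, adjusted p = 5.85e-05) lay within the limit. *Eif4g3*, the other full scaffold, was measured at 49.4 and 47.9 FPKM in naive Mb1Cre and 48.0 and 48.1 FPKM in naive Mct1f/fMb1Cre B cells, and 31.7 and 34.0 FPKM in activated Mb1Cre and 33.2, 34.8 and 34.3 FPKM in activated Mct1f/fMb1Cre B cells, lower on day 3 in every library, with a log2 change of -0.55 (SE 0.048, adjusted p = 6.94e-07). With median-of-ratios scaling the fall of *Eif4g3* no longer passed the limit, and with a common total the rise of *Eif4g1* in Mb1Cre cells no longer passed.

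Ratios of paralogs within a library, taken as log2 of FPKM + 1, hardly depend on how libraries are scaled, and were compared for 11 pairs between day 3 and day 0. The change in the log2 ratio was averaged over the genotypes and tested by an exact two-sided permutation test of the days within each genotype, whose smallest possible p with 60 arrangements is 0.0167, and p-values were adjusted over the 11 pairs. In 9 pairs the gene named first gained on the other (exact permutation p = 0.0167, adjusted p = 0.0204 for each), which is the smallest p the test can give. No share over other gene pairs was computed, and since the days did not overlap for 91.9% of single genes in Mb1Cre B cells, the number of pairs that passed says nothing particular to these genes. The order of the genes in a pair was chosen with earlier results known, and *Eif4a1*, *Eif4g1* and *Eif4e* each stand first in 2 pairs, so the pairs are not independent and their common sign is no further support. *Eif4a1* to *Eif4a2* changed by 2.14, from an FPKM ratio of 0.914 to 0.947 in naive Mb1Cre and 0.918 to 0.944 in naive Mct1f/fMb1Cre B cells to 3.93 to 3.99 and 4.10 to 4.46 after activation. *Eif4g1* to *Eif4g3* changed by 1.28, from 1.55 to 1.63 and 1.55 to 1.57 to 3.74 to 3.90 and 3.72 to 4.08. The inhibitor genes *Eif4ebp1* to *Eif4ebp2* changed by 2.02, from 0.505 to 0.515 and 0.50 to 0.541 to 2.38 to 2.67 and 1.67 to 1.92. In these 3 pairs the day 3 ratio was above the day 0 ratio in every library. Smaller changes of the log2 ratio that passed were those of *Eif5a* to *Eif5a2* (0.85), *Eif4e* to *Eif4e3* (0.81), *Eif1* to *Eif1b* (0.67), *Eif1a* to *Eif1ax* (0.57), *Eif4a1* to *Eif4a3* (0.51) and *Eif4g1* to *Eif4g2* (0.42). *Eif4e* to *Eif4e2* changed by 0.11 (exact permutation p = 0.0833, adjusted p = 0.0833) and *Eif3j1* to *Eif3j2* by 0.37 (exact permutation p = 0.05, adjusted p = 0.055), and these 2 pairs did not pass. The change of *Eif3j1* to *Eif3j2* depended on the pseudocount, since *Eif3j2* is near 1 FPKM, and was 0.042 with a pseudocount of 0.1 (exact permutation p = 0.833) and 0.66 with a pseudocount of 5 (exact permutation p = 0.0167, adjusted p = 0.0183). The size of the change of *Eif5a* to the low *Eif5a2* depended on it too, at 0.66 with a pseudocount of 0.1 and 1.10 with 5, and passed with both.

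**Figure D4:**
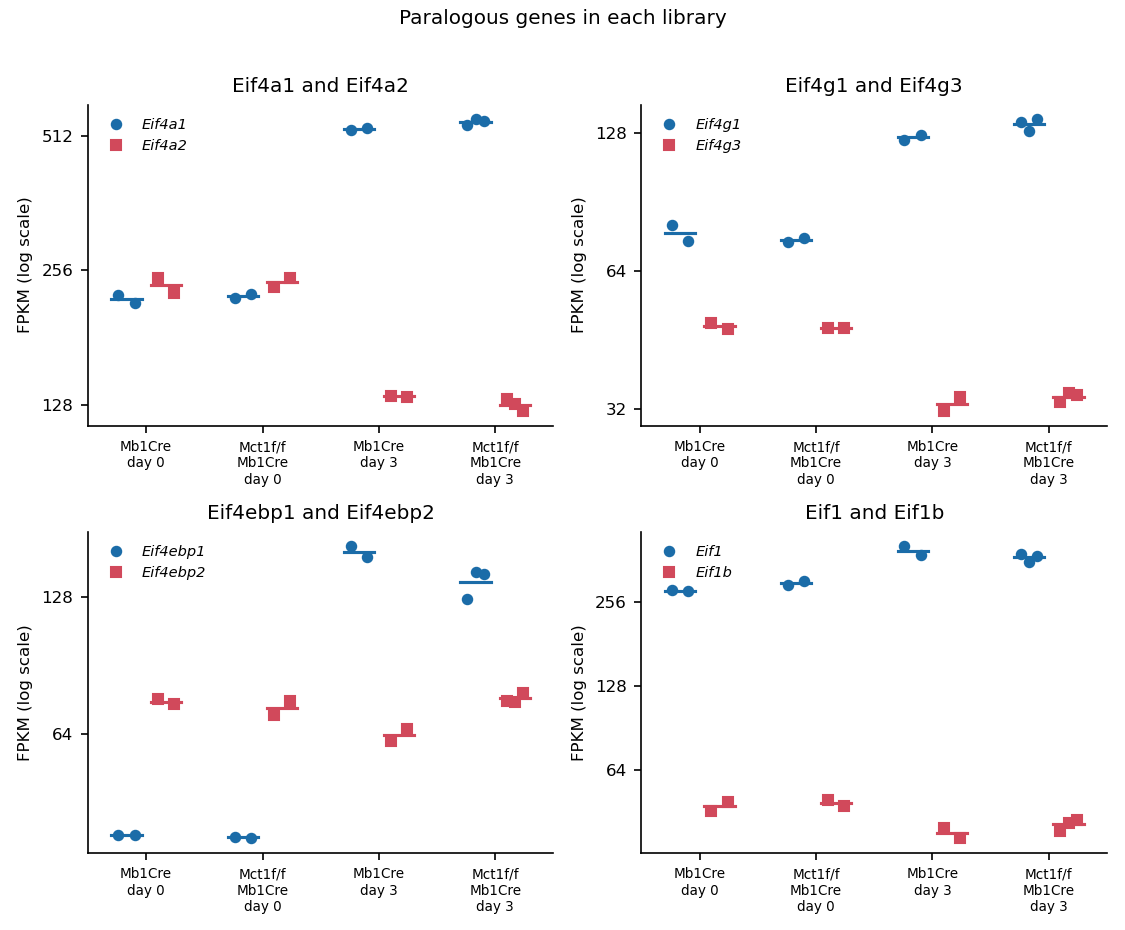
FPKM (log scale) of 4 paralog pairs in each library, with group means as bars; circles are the first and squares the second gene of a pair. Eif4a1 crosses from below Eif4a2 on day 0 to 3.93 to 4.46 times its level on day 3, and Eif4ebp1 crosses Eif4ebp2 in the same way, while Eif4g1 and Eif1 are above their paralogs on both days with a wider gap on day 3.

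The eIF4E-binding genes held the largest rise of all 49. *Eif4ebp1*, which codes for 4E-BP1, was measured at 38.5 and 38.4 FPKM in naive Mb1Cre and 38.2 and 37.9 FPKM in naive Mct1f/fMb1Cre B cells, and 165 and 157 FPKM in activated Mb1Cre and 126, 145 and 143 FPKM in activated Mct1f/fMb1Cre B cells, a rise of 2.03 (SE 0.062, adjusted p = 1.3e-10) in Mb1Cre B cells. *Eif4ebp2* was measured at 76.3 and 74.6 FPKM in naive Mb1Cre and 70.6 and 75.8 FPKM in naive Mct1f/fMb1Cre B cells, and 61.9 and 65.9 FPKM in activated Mb1Cre and 75.7, 75.4 and 79.0 FPKM in activated Mct1f/fMb1Cre B cells. *Eif4ebp3*, the least abundant, was measured at 19.6 and 18.7 FPKM in naive Mb1Cre and 19.3 and 19.6 FPKM in naive Mct1f/fMb1Cre B cells, and 17.3 and 15.8 FPKM in activated Mb1Cre and 12.9, 13.3 and 13.4 FPKM in activated Mct1f/fMb1Cre B cells. On day 0, *Eif4ebp2* was the most abundant of the 3 inhibitor genes in every library, and on day 3 it was *Eif4ebp1*. In Mb1Cre cells the log2 changes of *Eif4ebp2* and *Eif4ebp3* were -0.24 (SE 0.051, adjusted p = 0.00107) and -0.20 (SE 0.056, adjusted p = 0.00592), both within the limit. *Eif4enif1*, a transporter that carries eIF4E into the nucleus, rose by 0.75 (SE 0.045, adjusted p = 3.1e-08).

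Factors with roles beside the start of translation rose as well. *Eif5a*, a factor modified with hypusine that also promotes elongation, was the most abundant of all 51 genes in every activated library, and was measured at 395 and 398 FPKM in naive Mb1Cre and 376 and 409.9 FPKM in naive Mct1f/fMb1Cre B cells, and 932 and 944 FPKM in activated Mb1Cre and 1021, 1008 and 983 FPKM in activated Mct1f/fMb1Cre B cells. Its values on day 3 were far above those on day 0, with a log2 change of 1.24 (SE 0.05, adjusted p = 1.01e-09). The other copy, *Eif5a2*, was near the lower limit of the test at 1.47 and 1.66 FPKM in naive Mb1Cre and 1.50 and 1.45 FPKM in naive Mct1f/fMb1Cre B cells, and 1.83 and 2.47 FPKM in activated Mb1Cre and 2.79, 2.66 and 2.85 FPKM in activated Mct1f/fMb1Cre B cells, with a log2 change of 0.29 (SE 0.10, adjusted p = 0.0234) within the limit. Pseudogenes of *Eif5a* are known and may share its reads. *Eif6*, which keeps the ribosomal subunits apart and acts in the making of the large subunit, was measured at 39.7 and 41.5 FPKM in naive Mb1Cre and 42.9 and 41.4 FPKM in naive Mct1f/fMb1Cre B cells, and 92.3 and 87.4 FPKM in activated Mb1Cre and 84.6, 86.7 and 84.8 FPKM in activated Mct1f/fMb1Cre B cells and rose by 1.13 (SE 0.046, adjusted p = 1.17e-09). *Eif4a3*, a helicase of the exon junction complex that is named for its likeness to *Eif4a1*, was measured at 77.7 and 77.6 FPKM in naive Mb1Cre and 72.8 and 76.5 FPKM in naive Mct1f/fMb1Cre B cells, and 130.0 and 122 FPKM in activated Mb1Cre and 131, 137 and 136 FPKM in activated Mct1f/fMb1Cre B cells and rose by 0.69 (SE 0.047, adjusted p = 8.03e-08). Neither *Eif6* nor *Eif4a3* had overlapping days in either genotype, but the call of *Eif4a3* in Mb1Cre B cells was lost with a common total.

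The comparison of days was repeated in Mct1f/fMb1Cre B cells, which share no library with the control comparison. Of the 49 genes, 36 rose, 2 fell and 11 did not pass, where 23.4% of all genes tested rose and 33.2% fell, and the median log2 change was 0.77 against -0.14 for all genes. Without replicate 1 of naive Mct1f/fMb1Cre the median of the 49 genes was 0.73, beside -0.14 for all genes. Without replicate 2, when *Eif2s3y* was abundant in all 4 libraries compared, it was 0.82, again beside -0.14. Either way 1 naive library is left, which has no spread of its own. Of the genes that rose, 31 were shared between the genotypes, which is 91.2% of those in Mb1Cre and 86.1% of those in Mct1f/fMb1Cre B cells. The shared part of the calls of all genes was not computed, so these shares say nothing particular to the initiation factor genes. *Eif2b4*, *Eif2d* and *Eif5b* passed only in Mb1Cre, and *Eif1ad*, *Eif2s3x*, *Eif3k*, *Eif4b* and *Eif5a2* only in Mct1f/fMb1Cre B cells, with log2 changes there of *Eif1ad* (0.54), *Eif2s3x* (0.57), *Eif3k* (0.58), *Eif4b* (0.53) and *Eif5a2* (0.61). Without replicate 1 of naive Mct1f/fMb1Cre, *Eif2s3x* (0.32) and *Eif1ad* (0.49) no longer passed. With a common total *Eif1ad*, *Eif2s3x*, *Eif3k*, *Eif4b* and *Eif5a2* all lost the call in Mct1f/fMb1Cre B cells. After quantile normalization *Eif2s3x*, *Eif3k* and *Eif4b* lost it. *Eif4a2* fell in both genotypes, at -0.90 in Mct1f/fMb1Cre, and the other fall there was *Eif4ebp3* (-0.53), which no longer passed with median-of-ratios scaling or quantile normalization, while *Eif4g3* (-0.48) lay within the limit. A gene that passed in 1 genotype alone is not thereby shown to differ between the genotypes, which is tested next.

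The genotypes were compared on day 3 to ask whether loss of *Mct1* changed these genes in activated cells. No initiation factor gene passed the test with the log2 limit, which 2.42% of all genes tested did, and 12 of the 49 had an unadjusted p under 0.05 in limma, beside 29% of all genes. At an adjusted p under 0.05 without the log2 limit there were 5 of 49, or 10.2%, beside 15.2% of all genes, so the initiation factor genes did not pass more often than genes at large. The 3 with the smallest p were *Eif4ebp3*, *Eif4ebp2* and *Eif4b*, and the other 2, *Eif2d* and *Eif4ebp1*, are named because their values were seen. All 3 genes of the 4E-BPs were among the 5, in different directions. By the values given above, *Eif4ebp1* and *Eif4ebp3* were lower and *Eif4ebp2* was higher in every Mct1f/fMb1Cre library than in either control library on day 3. The log2 differences, Mct1f/fMb1Cre minus Mb1Cre, were -0.30 (SE 0.051, adjusted p = 0.00295) for *Eif4ebp3*, 0.26 (SE 0.046, adjusted p = 0.00384) for *Eif4ebp2* and -0.22 (SE 0.057, adjusted p = 0.0264) for *Eif4ebp1*.

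*Eif4b* and *Eif2d* lay apart in opposite directions. On day 3 *Eif4b* was at 163 and 159.9 FPKM in Mb1Cre and 187, 178 and 183 FPKM in Mct1f/fMb1Cre B cells, and on day 0 at 128 and 121 FPKM in Mb1Cre and 128 and 125 FPKM in Mct1f/fMb1Cre B cells. Its log2 difference on day 3 was 0.17 (SE 0.041, adjusted p = 0.016). *Eif2d* was at 30.3 and 29.7 FPKM in Mb1Cre and 25.9, 25.9 and 26.1 FPKM in Mct1f/fMb1Cre B cells on day 3 and at 20.1 and 19.1 FPKM in Mb1Cre and 18.9 and 20.3 FPKM in Mct1f/fMb1Cre B cells on day 0. Its log2 difference on day 3 was -0.20 (SE 0.047, adjusted p = 0.0163). Neither gene's genotypes overlapped on day 3. When each library was left out in turn, the adjusted p in limma ranged from 0.00322 to 0.0487 for *Eif4ebp3*, 0.0031 to 0.0597 for *Eif4ebp2*, 0.0126 to 0.114 for *Eif4b*, 0.0138 to 0.122 for *Eif2d* and 0.0282 to 0.199 for *Eif4ebp1*. Under the 10 other alternatives *Eif4ebp1* was over 0.05 in 4 (highest 0.0826) and *Eif2d* in 1. With a library left out, *Eif4ebp3* alone stayed under 0.05 throughout; without replicate 1 of activated Mb1Cre the other 4 did not. The genotypes did not overlap on day 3 for 26 of the 49 genes, beside 47.1% of all genes.

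**Figure D5:**
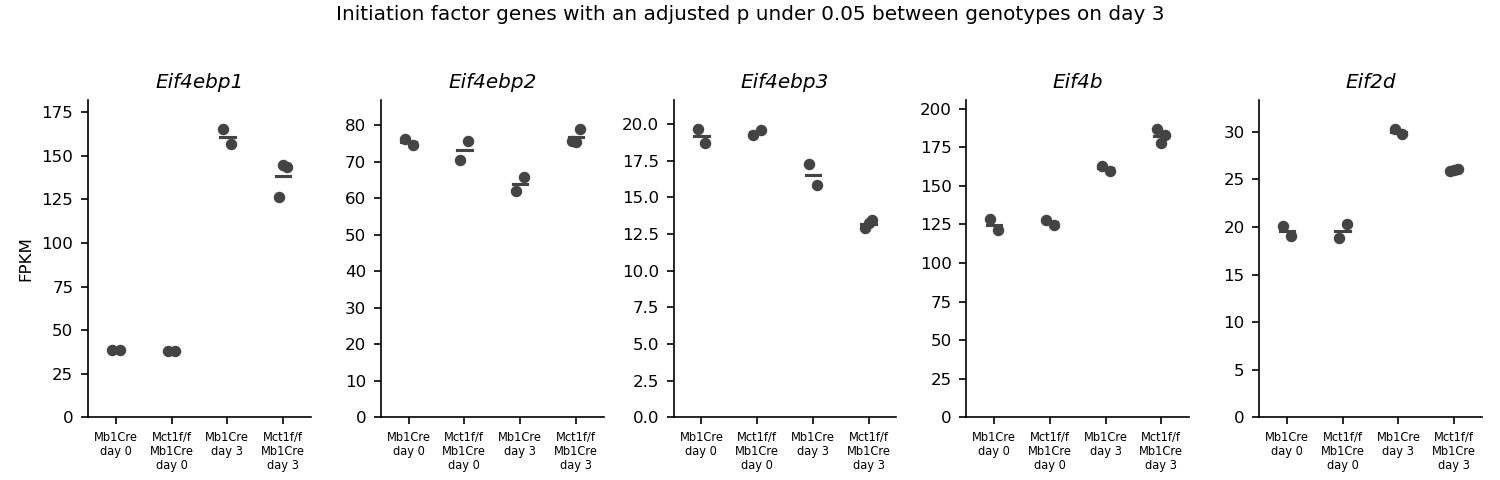
FPKM in each library of the 5 initiation factor genes with an adjusted p under 0.05 between the genotypes on day 3, with group means as bars. The genotypes lie together on day 0 and apart on day 3, with Eif4ebp2 and Eif4b higher and Eif4ebp1, Eif4ebp3 and Eif2d lower in Mct1f/fMb1Cre B cells.

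On day 0 no initiation factor gene passed between the genotypes, with or without the log2 limit, where 0.277% and 0.416% of all genes did, and 4 of 49 had an unadjusted p under 0.05 in limma, beside 11.7% of all genes. The 3 with the smallest p were *Eif3j1*, *Eif4e3* and *Eif3l*, with log2 differences of 0.22 (SE 0.046, adjusted p = 0.0913), 0.19 (SE 0.073, adjusted p = 0.351) and -0.11 (SE 0.044, adjusted p = 0.392). By the day 0 values given above, *Eif3j1* and *Eif4e3* were higher in each Mct1f/fMb1Cre library than in either control library. *Eif3l* had 99.7 and 99.9 FPKM in Mb1Cre and 91.3 and 93.7 FPKM in Mct1f/fMb1Cre B cells on day 0 and 172 and 167 FPKM in Mb1Cre and 177, 189.8 and 186 FPKM in Mct1f/fMb1Cre B cells on day 3 and was lower than the control in each Mct1f/fMb1Cre library on day 0 and higher in each on day 3. Without replicate 2 of naive Mct1f/fMb1Cre, which leaves 1 library with abundant *Eif2s3y* against 2 with little, *Eif2s3x* passed the limits (log2 difference -0.53, SE 0.062, adjusted p = 0.00161 in limma); the error then comes from the other groups, and the lone library is assumed to vary as they do.

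The difference between the genotypes' responses was tested by the interaction of genotype and day. No gene of the 49 passed with the log2 limit, beside 3.23% of all genes, and 13 had an unadjusted p under 0.05 in limma, beside 25.4% of all genes. At an adjusted p under 0.05 alone there were 5, beside 9.42% of all genes, and the 3 with the smallest p were *Eif3j1*, *Eif4ebp2* and *Eif4ebp3*. The log2 rise of *Eif3j1* was smaller in Mct1f/fMb1Cre B cells, with a difference of -0.32 (SE 0.063, adjusted p = 0.0121), and the changes of *Eif4ebp2* and *Eif4ebp3* differed by 0.30 (SE 0.068, adjusted p = 0.0219) and -0.32 (SE 0.076, adjusted p = 0.0267). *Eif4e3* and *Eif3l*, named after their values were seen, differed by -0.36 (SE 0.10, adjusted p = 0.046) and 0.23 (SE 0.06, adjusted p = 0.0401). For *Eif3j1*, *Eif4e3* and *Eif3l* the mean of Mct1f/fMb1Cre lay on opposite sides of the control mean on the 2 days, while for *Eif4ebp2* and *Eif4ebp3* they lay together on day 0 and apart on day 3. Under the other alternatives the adjusted p of *Eif3j1* was over 0.05 in 1 of 9, of *Eif4ebp3* in 2, of *Eif4ebp2* in 3, of *Eif3l* in 4 and of *Eif4e3* in 5. With each library left out in turn, none of the 5 kept an adjusted p under 0.05 in all 9 fits, and the highest value ranged from 0.0555 (*Eif3j1*, without replicate 2 of activated Mb1Cre) to 0.151 (*Eif4e3*). Of the 10 genes called in 1 genotype alone on activation, *Eif4ebp3* is among these 5, and the other 9 (*Eif2b4*, *Eif2d*, *Eif5b*, *Eif1ad*, *Eif2s3x*, *Eif3k*, *Eif4b*, *Eif5a2* and *Eif4g3*) had interaction adjusted p-values in limma from 0.0971 to 0.535.

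Genes that act around the initiation factors were taken from 3 lists. Of 31 regulators, such as the kinases that act on eIF2 and eIF4E and the binding partners of eIF4A and the poly(A) tail, 5 rose and 5 fell in Mb1Cre B cells, with a median log2 change of -0.060, beside -0.12 for all genes tested. The largest fall was that of *Pdcd4*, an inhibitor of eIF4A, which was measured at 121 and 139 FPKM in naive Mb1Cre and 147 and 139.9 FPKM in naive Mct1f/fMb1Cre B cells, and 10.9 and 10.4 FPKM in activated Mb1Cre and 10.4, 9.58 and 11.8 FPKM in activated Mct1f/fMb1Cre B cells. Its levels on the 2 days were far apart in both genotypes, with a log2 change of -3.49 (SE 0.087, adjusted p = 3.05e-11) in Mb1Cre B cells. *Eif2ak3*, the eIF2 kinase of endoplasmic reticulum stress, and *Mknk2*, a kinase of eIF4E, had log2 changes of -1.10 (SE 0.048, adjusted p = 2.12e-09) and -1.07 (SE 0.045, adjusted p = 1.52e-09). The largest rises were those of *Larp1*, which binds mRNAs of ribosomal proteins, at 1.33 (SE 0.044, adjusted p = 2.21e-10), of *Eif2ak2*, the kinase that senses double-stranded RNA, at 1.29 (SE 0.051, adjusted p = 8.71e-10), and of *Denr*, a partner in ribosome recycling, at 1.21 (SE 0.057, adjusted p = 3.71e-09). In Mct1f/fMb1Cre B cells 7 regulators rose and 6 fell. By the same rule 24.8% of all genes tested rose and 33% fell in Mb1Cre, and 23.4% and 33.2% in Mct1f/fMb1Cre B cells.

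Of 15 tested elongation and termination genes, 11 rose and 1 fell in Mb1Cre B cells, with a median log2 change of 0.72, and the same numbers rose and fell in Mct1f/fMb1Cre B cells, with a median of 0.80. Among all genes tested, 24.8% rose and 33% fell in Mb1Cre, and 23.4% and 33.2% in Mct1f/fMb1Cre B cells. *Etf1*, the release factor that reads stop codons, was measured at 31.6 and 30.6 FPKM in naive Mb1Cre and 31.8 and 32.5 FPKM in naive Mct1f/fMb1Cre B cells, and 89.7 and 91.3 FPKM in activated Mb1Cre and 90.5, 93.0 and 90.4 FPKM in activated Mct1f/fMb1Cre B cells, and rose by 1.51 (SE 0.041, adjusted p = 5.5e-11). *Eef1e1*, a scaffold of tRNA synthetases, and *Eef1b2*, an exchange factor of elongation, rose by 1.21 (SE 0.054, adjusted p = 2.41e-09) and 1.17 (SE 0.046, adjusted p = 8.94e-10). The gene that fell was *Eef2k*, the kinase that inhibits the elongation factor eEF2, at -0.66 (SE 0.072, adjusted p = 5.11e-06). Of 9 mitochondrial translation factor genes, 4 rose and 1 fell in Mb1Cre B cells, with a median of 0.38. The largest rises were those of *Gfm1* (0.97), *Mrrf* (0.97) and *Tufm* (0.95), which elongate and recycle on mitochondrial ribosomes, and *Mtif3*, the mitochondrial counterpart of an initiation factor, had a log2 change of -0.55 (SE 0.074, adjusted p = 3.07e-05). No gene of the 3 lists was called between the genotypes on either day or in the interaction. At an adjusted p under 0.05 alone in limma there were 6 on day 3, 0 on day 0 and 1 in the interaction. Of all genes tested, 15.2%, 0.416% and 9.42% passed that rule.

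The promoters of the initiation factor genes were searched for the E-box, CACGTG, which reads the same on both strands. RefSeq windows of 250 bases before to 50 after the annotated start (GRCm38.p6) were at hand for 38 of the 49 genes, and 10 of them (26.3%) held the motif, beside 1060 of 8790 tested genes with a window (12.1%). Counted by window, 24% of those of the initiation factor genes and 10.2% of all held it. The 10 genes were *Eif4e*, *Eif4h*, *Eif4a1*, *Eif5a*, *Eif4g1* and *Eif3a*, which rose in Mb1Cre B cells, and *Eif5a2*, *Eif3k*, *Eif3f* and *Eif1b*, which were not called higher. By group this was 6 of 26 genes called higher (23.1%) and 4 of 12 others (33.3%). The difference between these shares was not tested, and of the 4 others *Eif3f*, *Eif3k* and *Eif5a2* were higher on day 3 within the log2 limit (adjusted p = 0.000332, 9.59e-06 and 0.0234 in limma). *Eif1b* was lower on day 3 in Mb1Cre B cells within that limit (log2 change -0.31, adjusted p = 0.000708 in limma). A match of letters is not a binding site. The scaffold *Eif4g1* and the cap binding gene *Eif4e*, whose products form eIF4F with that of *Eif4a1*, are shown with their last 100 bases before a start, on the plus strands of chr16:20672627-20672726 and chr3:138527168-138527267, with the motif in capitals.
Eif4g1: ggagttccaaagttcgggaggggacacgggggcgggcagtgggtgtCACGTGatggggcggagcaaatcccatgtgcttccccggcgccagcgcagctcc
Eif4e: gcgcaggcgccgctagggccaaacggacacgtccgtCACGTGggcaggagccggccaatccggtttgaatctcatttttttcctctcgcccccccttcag
In these stretches the motif began 54 bases before the start used for *Eif4g1* and 64 bases before that used for *Eif4e*. The start used for *Eif4e* lies inside the gene, whose annotation begins at chr3:138526191. The whole windows of both genes held it 2 times. *Myc* itself, the best known factor of this motif, was measured at 64.3 and 71.0 FPKM in naive Mb1Cre and 66.7 and 58.5 FPKM in naive Mct1f/fMb1Cre B cells, and 104 and 110.3 FPKM in activated Mb1Cre and 114, 122 and 116 FPKM in activated Mct1f/fMb1Cre B cells, with all day 3 libraries above those of day 0. The part of *Myc* in the changes of these genes was not tested.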

How the data were processed

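RNA-seq of splenic B cells was analysed in 9 libraries of 4 groups. The authors deposited a table of FPKM per gene with 2 decimals, and per the study's methods the sequencing institute assembled the data. The submitters' processing notes name Bowtie2 and the builds GRCm38 and mm10. The counting tool was not given in the sources used here. No read counts were used. The FPKM of a library summed to between 477079 and 491459 on day 0 and between 547355 and 563586 on day 3. Weak steps in the low values would fit between 17.8 and 18.2 fragments in units of 1e+06 per library on day 0 and between 19.5 and 19.8 on day 3, but whole reads could not be recovered, so the depth is known only roughly and no interval was built on it.

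Genes whose mean over the 9 libraries reached 1 FPKM were fitted together as log2(FPKM + 1) with limma 3.58.1 in R 4.3.3, with 4 group means, a trend in the variance and Benjamini-Hochberg adjustment over 10823 genes in each of 5 comparisons. The pseudocount understates the change of low genes. A call needed both a log2 change over 0.5 in size and an adjusted p under 0.05. In simulated data of 10823 genes, each gene had the same mean in all libraries, that over the 4 groups, and random noise of its own spread. Of genes with a log2 mean above 2, 100 were changed by 1 and 100 by 2 on the log2 scale in activated Mb1Cre libraries. The fit recovered 99% and 100% of them, and 4 unchanged genes were called. Lower genes were not changed, and far fewer genes changed than were called in the real comparison, so these rates need not hold there. Paralog ratios were tested by exact permutation (Python 3.11.15, scipy 1.17.1). Pseudocounts, filters, scalings, limits and left-out libraries were varied. All 51 symbols matched RefSeq genes.

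The members, the role groups and the 3 lists of related genes were chosen with earlier results of these data known. Values in every library are given, per role, for the most abundant gene and the called genes with the largest rise and fall in Mb1Cre B cells, for the paralog pairs, and for the 3 genes with the smallest p in each genotype comparison and the interaction; from each list of related genes up to 3 called genes in each direction are named. *Myc* is given for the E-box motif and lies outside these rules. Others are marked as chosen after their values were seen.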

Additional observations from a re-analysis of the deposited data

Results flagged for a closer look

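The response to activation differed between the genotypes for 5 initiation factor genes by the interaction of genotype and day at an adjusted p under 0.05 in limma, with none past the log2 limit of 0.5. This is 10.2% of the 49 genes, beside 9.42% of all genes tested, and so about the share of genes at large. The interaction, as the log2 change in Mct1f/fMb1Cre minus that in Mb1Cre B cells, was -0.32 for *Eif3j1*, 0.30 for *Eif4ebp2*, -0.32 for *Eif4ebp3*, -0.36 for *Eif4e3* and 0.23 for *Eif3l*. When each of the 9 libraries was left out in turn, the adjusted p was at or over 0.05 in 1 of 9 fits for *Eif3j1*, 4 for *Eif4ebp2*, 6 for *Eif4ebp3*, 8 for *Eif4e3* and 8 for *Eif3l*. Its highest value was 0.0555 for *Eif3j1*, 0.0965 for *Eif4ebp2*, 0.111 for *Eif4ebp3*, 0.151 for *Eif4e3* and 0.131 for *Eif3l*. The sign of each interaction was the same in all 9 fits. The 3 naive libraries with little *Eif2s3y* and the 6 libraries in which it was abundant are split unevenly over the genotypes, and the part of sex in these differences was not tested.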

How the results depend on the processing

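No count or change of an initiation factor gene that was called turned direction under the alternatives run. The median of all genes did, from -0.12 to 0.065 with median-of-ratios scaling and 0.016 after quantile normalization in Mb1Cre, and from -0.14 to 0.056 and 0.028 in Mct1f/fMb1Cre B cells; more genes then rose than fell. Of changes not called, those of *Eif4ebp2* (-0.11 with a common total, -0.05 after quantile normalization) and *Eif4e3* (-0.08 with a common total) in Mct1f/fMb1Cre B cells turned sign. Of the counts that answer a comparison, 404 values stayed within 1.5 times the value reported and 28 moved; of values for single genes, 829 kept their side of the threshold, 50 lost it and 28 gained it. With a log2 limit of 1, 14 initiation factor genes rose and 0 fell in Mb1Cre B cells and 12 rose and 0 fell in Mct1f/fMb1Cre B cells, beside 12.2% and 17.3%, and 11.1% and 16.6%, of all genes; with no limit, 44 were higher and 5 lower in Mb1Cre and 43 and 4 in Mct1f/fMb1Cre B cells (37% and 47.5%, and 36.4% and 49.1%, of all genes), 2 were higher and 3 lower between the genotypes on day 3 (6.03% and 9.21%), and 2 and 3 in the interaction (3.82% and 5.61%). Median-of-ratios scaling left 1 lower gene in each genotype, and a pseudocount of 5 left 1 in Mct1f/fMb1Cre. Leaving out each library in turn gave 0 to 1 lower gene between the genotypes on day 0 and 0 to 1 higher in the interaction, *Eif2s3x* in both cases. A pseudocount of 5 let *Eif3j1* to *Eif3j2* pass among the paralog pairs. Leaving out a library gave 0 to 11 pairs, since with 1 Mct1f/fMb1Cre library fewer the smallest permutation p is 0.0417 or 0.0556 and the adjusted p could hardly or not pass. Of the related genes, 8 rose and 3 fell in Mb1Cre and 9 rose and 2 fell in Mct1f/fMb1Cre B cells with a log2 limit of 1; with no limit, 15 and 14 were lower, 3 were higher and 3 lower between the genotypes on day 3, and 1 was higher in the interaction. Replicate numbers did not pair the libraries, with correlations of deviations of -0.12 in Mb1Cre and 0.053 and 0.064 in Mct1f/fMb1Cre B cells. With a replicate block, 34 rose and 2 fell in Mb1Cre, 36 rose and 2 fell in Mct1f/fMb1Cre B cells and 0 differed between genotypes; the adjusted p of *Eif2d* (0.0699) and *Eif4ebp1* (0.0528) on day 3 and of the 5 interactions was then over 0.05. The crossed block, added after seeing the data, also gave 34 and 2. The adjusted p of *Eif4ebp1* on day 3 was over 0.05 too with no filter on low values, with only the groups compared and with no trend. No filter took all the interactions but *Eif3j1*, and no trend *Eif3l*, *Eif4e3* and *Eif4ebp2*, over 0.05. Median-of-ratios scaling did so for *Eif3l*, and a common total and quantile normalization for *Eif4e3*.

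The group sizes of 2 and 3 libraries and the unknown origin of the replicates limit every comparison. In Mb1Cre mice day and sex cannot be told apart. *Eif3j2*, near 1 FPKM, varied most between replicates, by up to 1.87 times. Reads of near-identical copies may be shared. FPKM give shares of the RNA sequenced, so a change in total RNA per cell is not seen.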
